A study of Drosophila melanogaster with 4 samples.

Results

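Broad H3K9ac domains were examined in larval tissue of Drosophila melanogaster. H3K9ac is histone H3 acetylated at lysine 9, and it was mapped by ChIP-seq, in which an antibody enriches DNA bound to the marked histone before sequencing. The members were chosen by their length from the authors' 2 lists of enriched clusters, 1 for each ChIP replicate. A stretch is a continuous run of sequence covered by a cluster in both replicates, and it is called broad at 5000 bp or longer. Of 6134 stretches on the 5 large chromosome arms X, 2L, 2R, 3L and 3R, 571 were broad and 5563 were short. The series holds 6230 stretches when chromosome 4, the heterochromatic sequences and the unplaced sequence U are included.

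The series comprises 2 ChIP and 2 input libraries, all from third-instar larvae of the wild-type strain Oregon-R, harvested from bottles and fixed with formaldehyde. No treatment or other genotype was compared. The input libraries were not analysed here, and how the authors handled background when they called clusters is not known here. The chromatin came from mixed larval tissue, and a region marked in every cell at a low level cannot be told apart from one marked strongly in a few. Whether separate batches of larvae gave the 2 replicates is not stated, and their spread may be technical.

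Acetylation of H3K9 is placed by acetyltransferases such as Gcn5, removed by deacetylases, and found mainly at promoters and the first part of transcribed genes. The acetyl group removes the positive charge of the lysine and is read by bromodomain proteins. A mark that spreads over several kilobases can cover a long active gene, several promoters that lie close together, or a gene and its neighbouring enhancers. The positions in the files follow release 5 of the fly genome, while the gene table at hand follows release 6. Broad stretches were therefore not assigned to genes, no sequence is shown, and the tissue was not checked against marker genes.

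Broad stretches were few but held a large part of the marked sequence. They made up 9.31% of the stretches on the arms and 22.4% of the bases in them, or 3.92 of 17.5 Mb. The median broad stretch was 6201 bp long, with 25% under 5459 bp and 25% over 7548 bp, against a median of 2284 bp for the short stretches. Stretches of 10 kb or more were a small part of the class, with 46 members, after 425 from 5 to 7.5 kb and 100 from 7.5 to 10 kb. The numbers of stretches fell with length through the limit of 5000 bp without a gap. The 3 shortest members measured 5001, 5008 and 5008 bp, and the 3 longest of the short stretches measured 4999, 4993 and 4993 bp. Scores are the authors' value per cluster on a log2 scale. The 3 members at the limit scored 1.39, 1.94 and 1.53 in replicate 1 and 1.43, 1.96 and 1.44 in replicate 2. The 3 short stretches next to it scored 0.88, 1.04 and 1.00 in replicate 1 and 0.80, 1.00 and 0.85 in replicate 2, all below those 3 members. These are single regions taken by their length, and the classes on either side differed much less. The median was 1.17 in replicate 1 and 1.10 in replicate 2 from 2.5 to 5 kb, and 1.26 and 1.22 from 5 to 7.5 kb.

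**Figure D1:**
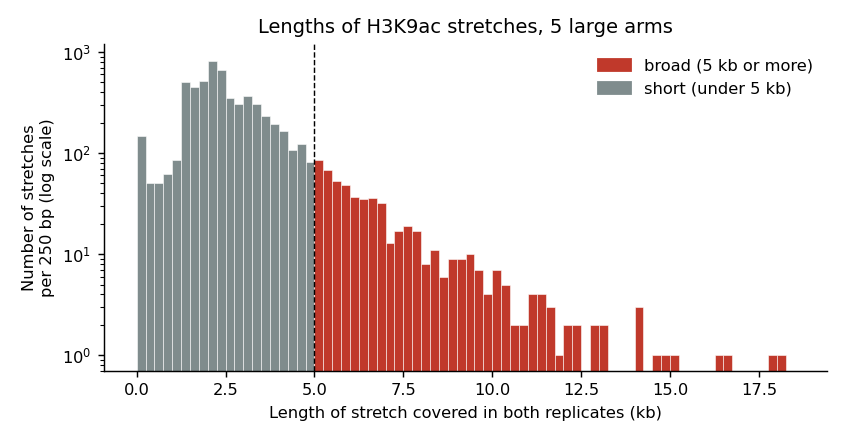
Number of H3K9ac stretches covered in both replicates (y axis, log scale) by length in kb (x axis, bars of 250 bp) on the 5 large arms, with broad stretches in red and short ones in grey. The counts fall without a break at the dashed line at 5 kb, and the longest stretch is 18121 bp.

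The length of a domain depended on both libraries. In replicate 1, 824 clusters on the arms were 5 kb or longer, and in replicate 2 there were 757 (791 ± 47.4, SD, n = 2). These were 12.8% and 10.0% of the clusters on the arms in each list. Of the long clusters of replicate 1, 564 (68.4%) held a broad stretch, as did 564 (74.5%) of those of replicate 2. The other long clusters were nearly all marked in the second library too, but over shorter sequence. In replicate 1, 103 of them held a single shorter stretch and 157 held several, and none lacked a partner. In replicate 2, 96 held a single shorter stretch, 94 held several, and 3 had no partner in replicate 1. Among clusters of 10 kb or more, 83 of 89 in replicate 1 and 79 of 84 in replicate 2 held a broad stretch. About as many of these very long clusters were interrupted in the other library as were not, with 46 in replicate 1 and 42 in replicate 2 holding more than 1 stretch.

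The mark was stronger over broad stretches than over short ones, and within the broad class it hardly depended on length. The median score of broad stretches was 1.29 in replicate 1 and 1.23 in replicate 2 (1.26 ± 0.04, SD, n = 2). For short stretches it was 0.79 and 0.73 (0.76 ± 0.04), so the difference was several times the spread between the replicates. When the lists were limited to their top-scoring 50% of clusters, the medians were 1.31 and 1.17, a difference of 0.14. The score is made from the same clusters as the length, and no test was made of this difference. Most of the rise with length took place below 5 kb. From 1 to 2.5 kb the median was 0.61 in replicate 1 and 0.60 in replicate 2, and from 2.5 to 5 kb it was 1.17 and 1.10. From 5 to 7.5 kb it was 1.26 and 1.22, from 7.5 to 10 kb 1.31 and 1.26, and at 10 kb or more 1.36 and 1.31. Across the 571 broad stretches, Spearman's rho between length and score was 0.05 in replicate 1 and 0.04 in replicate 2, against 0.71 in each over the 5563 short ones. These are correlations across regions of the same libraries and describe those libraries alone.

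**Figure D2:**
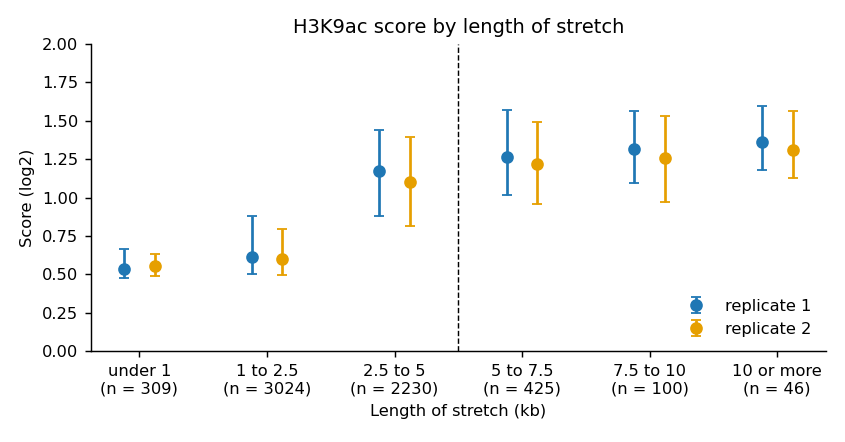
Median score on the log2 scale (y axis) in each replicate for 6 classes of stretch length in kb (x axis), with bars from the 25th to the 75th percentile over stretches and the number of stretches below each class. The medians rise up to the dashed line at 5 kb and then level off, from 1.26 to 1.36 in replicate 1.

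Broad stretches were more frequent among high scores, although the highest score of all belonged to a short stretch. In all, 433 broad stretches (75.8%) had a mean score of the replicates above 1, against 33.8% of short stretches, and 401 were above 1 in both replicates. Of the 50 highest-scoring stretches on the arms, 13 were broad, where broad stretches made up 9.31% of all. The highest mean score was 2.36 among broad and 2.57 among short stretches. The 95th percentile of the short stretches was a score of 1.62, which 112 broad stretches (19.6%) exceeded. Short stretches from 2.5 to 5 kb came near the broad ones and held the highest score of all. The median of their mean scores was 1.13 and the 95th percentile 1.79, against 1.26 and 1.87 for broad stretches. The strongest broad stretch lay on 2R from 7776655 to 7783082 and scored 2.52 in replicate 1 and 2.19 in replicate 2. The next lay on X from 1369831 to 1378238, with 2.06 and 2.17, and on 2R from 18491590 to 18497630, with 2.18 and 2.05. The other 2 of the top 5 were on 3R, from 25868217 to 25874234 with 2.19 and 2.03, and from 9469844 to 9475076 with 2.25 and 1.89. All 5 were between 5233 and 8408 bp long, so none was among the longest. At the other end, 3 broad stretches chosen after their values were seen had the lowest scores. They lay on 3R from 22717107 to 22722579 (0.57 in replicate 1 and 0.56 in replicate 2), on 3L from 338094 to 343267 (0.60 and 0.53) and on 2L from 5222484 to 5228333 (0.55 and 0.61).

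The 5 longest domains differed among themselves in strength and in the firmness of their ends. The longest, 18121 bp on 2R from 8054427 to 8072547, scored 1.77 in replicate 1 and 1.64 in replicate 2. Its edges differed between the replicates by 32 bp on the left and 78 bp on the right. The 17764 bp stretch on X from 9041709 to 9059472 scored 1.60 and 1.61, with edges that differed by 95 and 169 bp. Both of these were thus drawn almost alike in the 2 libraries. The 16525 bp stretch on X from 652855 to 669379 scored 1.45 and 1.40, and here the replicate 2 cluster ran 3491 bp further on the left, for a length of 20016 bp against 16619 bp in replicate 1. The 16318 bp stretch on 2L from 11986601 to 12002918 scored 1.14 and 1.13 with edges 212 and 132 bp apart. It stood alone, with the nearest other stretch 14806 bp away. The 15040 bp stretch on 3L from 539066 to 554105 was the weakest of the 5, with 0.99 and 0.86, and the replicate 1 cluster ran 4267 bp beyond it on the right. The longest on 3R, 14226 bp from 19871219 to 19885444, scored 1.64 and 1.38.

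Scores of broad stretches were repeated more closely between the libraries than those of short ones. The score in replicate 1 exceeded that in replicate 2 by 0.06 ± 0.15 (SD over 571 stretches), against 0.04 ± 0.20 over the 5563 short ones. The SD of this difference was 0.20 at 1 to 2.5 kb and 0.13 at 10 kb or more. Replicate 1 was higher at 389 broad stretches (68.1%), where over all stretches of the arms the share was 58.5%. Pearson's r between the replicates was 0.916 over the broad and 0.877 over the short stretches, as a description across regions. The lists were called separately, so a common offset between their scores is not a difference in acetylation.

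Broad stretches were present on all 5 arms, at a higher density on 2R and 3R than on the other 3. Their density was 5.49 per Mb on 2R (116 stretches), 5.48 on 3R (153), 4.56 on 2L (105), 4.24 on 3L (104) and 4.15 on X (93). Over the 5 arms together it was 4.80 per Mb for broad and 46.7 per Mb for short stretches. The share of stretches that was broad lay in a narrow range over the arms. It was 9.92% on 3R, 9.90% on 2L, 9.62% on X, 8.76% on 2R and 8.39% on 3L. Long clusters of each list ranked the arms in much the same way. There were 8.11 ± 0.301 clusters of 5 kb or more per Mb on 2R and 7.74 ± 0.608 on 3R, against 5.91 ± 0.553 on 2L, 5.74 ± 0.173 on 3L and 5.62 ± 0.315 on X (mean ± SD, n = 2). The last 3 arms differed from each other by no more than about the spread between the replicates. The median broad stretch measured 5906 bp on X, 6050 bp on 3L, 6137 bp on 3R, 6350 bp on 2L and 6534 bp on 2R.

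On X the broad stretches were the highest-scoring of the 5 arms. Their median score was 1.38 in replicate 1 and 1.36 in replicate 2, against 1.24 to 1.28 and 1.19 to 1.23 on the 4 autosome arms. The short stretches of X were higher as well, at 0.98 and 0.88 against 0.75 to 0.77 and 0.68 to 0.73. The step from short to broad was accordingly not larger on X. It was 0.40 in replicate 1 and 0.48 in replicate 2 on X, against 0.47 to 0.52 and 0.50 to 0.52 on the autosome arms. The part that X copy number or read depth plays in these levels was not tested.

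Along the arms, broad stretches leaned towards the telomere and away from the centromere, more so than short ones of 1000 bp or longer. Within 2 Mb of a telomere, 77 broad stretches were found, which is 13.5% of all broad ones, against 10.2% of the short ones. In the 2 Mb next to the centromere there were 17 (2.98%), against 5.11% of the short ones. The short class was mixed in its position. Its 309 members from 2 to 993 bp leaned at least as far as the broad ones, with 14.6% at the telomere and 0.97% at the centromere. Those from 1003 to 2499 bp had 9.92% and 5.82%, and those from 2500 to 4999 bp had 10.0% and 4.71%. The density of broad stretches was 7.70 per Mb at the telomere sides, 4.82 per Mb in the arm middles and 1.70 per Mb at the centromere sides. Short stretches also thinned out in this order, at 56.9, 47.6 and 28.4 per Mb, but less steeply. The share of stretches that were broad was therefore 11.9% at the telomere sides, 9.20% in the middles and 5.65% at the centromere sides. It had the same order in each replicate alone, with 15.1%, 12.8% and 8.54% of clusters at 5 kb or more in replicate 1 and 12.1%, 9.97% and 6.58% in replicate 2. The excess of broad over short stretches in the share within 2 Mb of a telomere was 3.26 percentage points. It was 2.57 without replicate 1, 2.09 without replicate 2, 1.40 with stretches 500 bp or less apart joined and 8.86 with 7500 bp as the limit.

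The arms did not all share this gradient. At the telomere sides, 2L held 18 broad stretches (14.9% of the stretches there), 2R 21 (13.5%), X 15 (13.3%), 3R 10 (10.2%) and 3L 13 (8.23%). On 3L the share was lower than in its own middle (8.52%), and on 3R it was about equal to it (10.1%). At the centromere sides the counts were 10 on 3R, 5 on 2L, 1 on 2R, 1 on 3L and 0 on X. This share was lower than in the middle of the same arm on 4 arms, the exception being 2L with 10.9% against 9.17%, which rests on its 5 members. The longest stretches leaned most to the telomere. Of the 46 stretches of 10 kb or more, 11 (23.9%) lay within 2 Mb of it, as did 17 of the 100 from 7.5 to 10 kb and 11.5% of those from 5 to 7.5 kb. How much of the arm ends could be mapped is not known here.

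**Figure D3:**
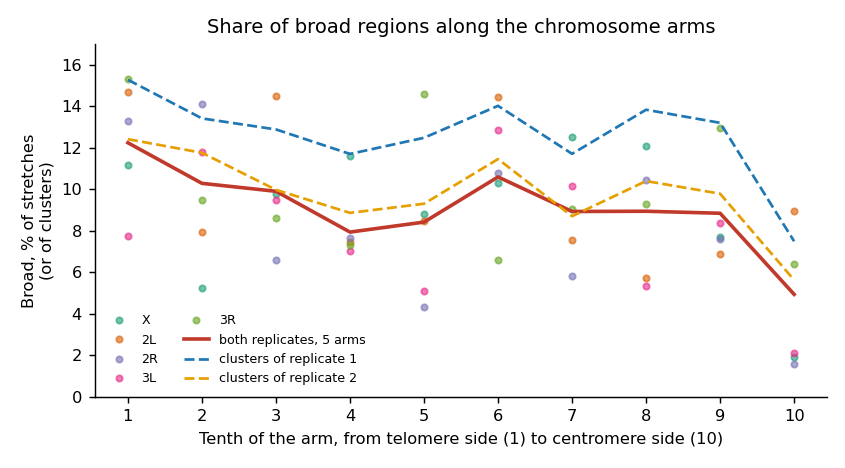
Share of stretches that were broad (y axis, %) in each of 10 equal parts of the arms from the telomere side to the centromere side (x axis). The red line pools the 5 arms, points are single arms, and dashed lines give the share of clusters of 5 kb or more in each replicate's own list. The pooled share falls from 12.2% next to the telomere to 4.94% next to the centromere, with little order in between.

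Broad stretches lay slightly closer to other marked sequence than short ones. The median distance from a broad stretch to the nearest other stretch was 1707 bp, with 25% under 551 bp and 25% over 4091 bp. For short stretches it was 1998 bp, with quartiles of 634 and 5193 bp. A distance above 10 kb was found for 53 broad stretches (9.28%) and for 13.1% of the short ones. The short class was mixed in its spacing. Its members from 2500 to 4999 bp came near the broad ones, with a median of 1884 bp and 9.96% above 10 kb. Those from 1003 to 2499 bp lay farther off, at 2264.5 bp and 16.0%. Those from 2 to 993 bp lay closer than the broad ones, at 544 bp and 7.12%. On the wider side, the median distance was 9376 bp for broad and 11672 bp for short stretches. The order held on 4 arms, with the largest contrast on 2L (1557 against 2241 bp), and not on 3R (1699 against 1651 bp). In each replicate's own list the long clusters were also the closer ones, at 1603 against 2066 bp in replicate 1 and 1400 against 1815 bp in replicate 2. With the lists limited to their top-scoring 50%, however, the difference was 50 bp, at 3519 against 3569 bp.

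A few broad stretches stood far from any other mark. The farthest was 5132 bp on X from 14473784 to 14478915, with no other stretch within 239881 bp. It scored 0.86 in each replicate, and its edges differed by 10 and 37 bp. The next were 7799 bp on 2L from 21827761 to 21835559 (nearest stretch at 68028 bp, scores 0.82 and 0.86) and 5071 bp on 3L from 13105831 to 13110901 (64500 bp, scores 0.93 and 0.89). These isolated members all scored below the broad median.

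The neighbours of broad stretches were mostly short, but they were broad more often than the neighbours of short stretches. Of 1142 neighbour positions next to a broad stretch in order along the arm, 150 (13.1%) held a broad one. Next to short stretches it was 8.92% of 11116 positions. Each adjacent pair is counted from both of its members. The share over all stretches was 9.32%. The difference was largest on X, at 18.3% against 8.71%. It was 14.3% against 9.42% on 2L and 14.4% against 9.44% on 3R, and smaller on 3L (9.62% against 8.28%) and 2R (9.48% against 8.70%). A weaker excess went on beyond the next stretch: from the second to the eighth neighbour the share was 10.7% to 12.1% around broad and 9.06% to 9.19% around short stretches. At neighbours 9 and 10 it was 9.66% and 9.83% around broad stretches, close to the share over all. At the first neighbour, the excess was not seen around the longest broad stretches. The share was 12.8% around those from 5001 to 7490 bp and 16.5% around those from 7501 to 9892 bp. Around those from 10005 to 18121 bp it was 8.70%, which rests on 8 of 92 positions.

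**Figure D4:**
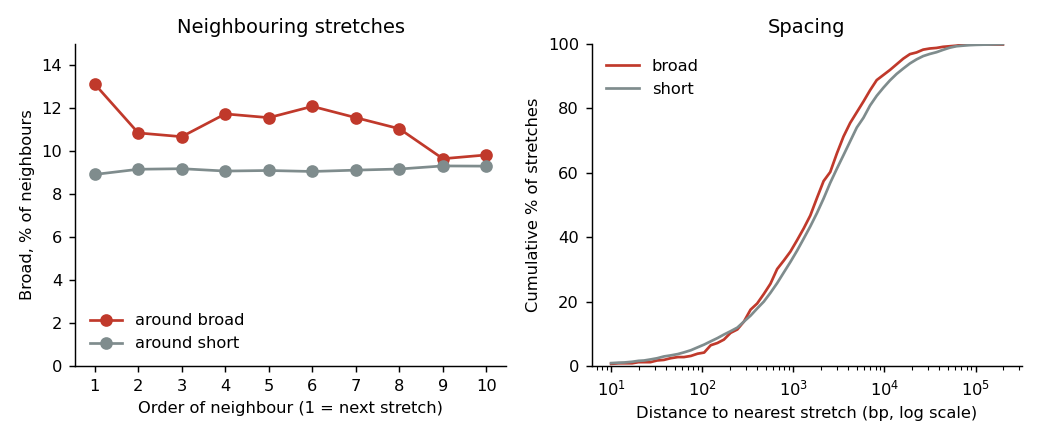
Left, share of neighbours that were broad (y axis, %) by order of the neighbour along the arm (x axis), around broad (red) and short (grey) stretches. Right, cumulative share of stretches (y axis, %) by distance to the nearest other stretch in bp (x axis, log scale). Broad stretches have more broad neighbours, 13.1% against 8.92% at the first, and their distances are slightly shorter.

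Some pairs of adjacent broad stretches were domains that 1 library joined and the other divided. Of the 75 pairs of broad stretches with nothing between them, 13 (17.3%) were joined by a single cluster, 6 in replicate 1 and 7 in replicate 2, compared with 12.1% of all 6129 adjacent pairs. The gap was 500 bp or less in 12 of the 75 pairs, and the smallest were 30 bp on 2L and 40 bp on 2L. With joined pairs left aside, 12.4% of neighbours of broad stretches were broad, against 8.91% of neighbours of short ones. The excess was also seen among these unjoined neighbours, and its cause was not tested. With 7500 bp as the limit, where 146 stretches were broad, the 2 shares were 4.11% and 2.34%.

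Groups of broad stretches were small. Consecutive broad stretches were a median of 89.4 kb apart, and 86 of 566 such distances (15.2%) were 10 kb or less. At that limit, 155 broad stretches (27.1%) fell into 69 groups, of which 55 had 2 members and 12 had 3, and 416 stood alone. In windows of 100 kb, 790 of 1189 (66.4%) held none, 281 held 1, 79 held 2 and 39 held 3 or more. The ratio of variance to mean over windows was 1.39 for broad stretches and 2.60 for short ones, which are about 10 times as many and also unevenly spread.

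The largest group had 5 members on 2L, from 818068 to 873118, where broad stretches covered 64.9% of 55051 bp. Its members measured 5136, 5448, 8799, 7608 and 8740 bp. In replicate 1 they scored 1.62, 1.16, 1.14, 1.14 and 1.78, and in replicate 2 they scored 1.87, 1.13, 0.97, 1.504 and 1.56. The pair in positions 3 and 4 was 1 cluster in replicate 1 and 2 clusters in replicate 2, 258 bp apart. The next group had 4 members on 3R, from 7038620 to 7071594, which measured 5110, 6231, 5465 and 5013 bp. They scored 2.14, 2.07, 1.26 and 1.48 in replicate 1 and 1.97, 1.97, 1.14 and 1.43 in replicate 2. Its first 2 members were a single cluster in replicate 2, so the group holds 1 strong and 2 weaker domains there. The third group had 3 members on X, from 15625466 to 15658764, of 11242, 5340 and 6867 bp, with 1.37, 2.08 and 1.19 in replicate 1 and 1.32, 1.95 and 1.01 in replicate 2. The shortest of these 3 was the strongest in both libraries. The densest window of 100 kb held this group, on X from 15600001 to 15700000, with 6 broad and 3 short stretches.

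Single edges of broad and short stretches lay about equally far apart in the 2 libraries, while fewer broad stretches had both edges in agreement. The median difference between the replicates was 134 bp at the left and 126 bp at the right edge of broad stretches, and 137 and 136 bp for short ones. Relative to length, the summed difference was 6.81% of a broad and 16.5% of a short stretch at the median. Both edges lay within 500 bp at 320 broad stretches (56.0%, 95% Wilson interval 51.9% to 60.1%), where the share over all stretches of the arms was 60.8%. For short stretches it was 61.3%, a difference of -5.22 percentage points (95% Newcombe interval -9.51 to -1.001). Both intervals cover counting error over the stretches of these 2 libraries alone, and neighbouring stretches can share a cluster. They do not measure the spread between libraries and are not a test of the difference. The short class includes 309 stretches under 1 kb, mostly slivers where 2 clusters barely met, and 1.29% of these had both edges within 500 bp. With them left out, the share for short stretches was 64.8%. With 4000 bp as the limit the difference was -0.84 percentage points, with stretches 500 bp or less apart joined it was -1.76, and with the top-scoring 50% of clusters it was -17.4. Agreement was highest in the middle of the length range, with 67.0% from 2.5 to 5 kb, and fell to 57.9%, 51.0% and 50.0% in the 3 classes of broad stretches. The difference was widest on X (49.5% against 64.3%) and nearly absent on 2R (57.8% against 57.9%).

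Where the edges parted, 1 library continued the domain. Of the 1142 edges of broad stretches, 73.7% ended within 500 bp in both replicates without being joined onward, as did 73.7% of the edges of short stretches and 77.9% of those of short stretches of 1 kb or more. At 146 (12.8%) the cluster of 1 replicate ran on into the next stretch, so that the domain was divided in 1 library and joined in the other. At 154 (13.5%) it ran on for over 500 bp and ended before the next stretch. In all, 135 broad stretches (23.6%) were joined to a neighbour on at least 1 side, against 21.5% over all stretches. Among stretches of 10 kb or more, 18.5% of edges were joined ones. Neither library drew the broad domains wider throughout: replicate 2 reached further at 250 of 571 left and 277 of 571 right edges. Over all 6134 stretches of the arms, it reached further at 2672 left and 2643 right edges.

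**Figure D5:**
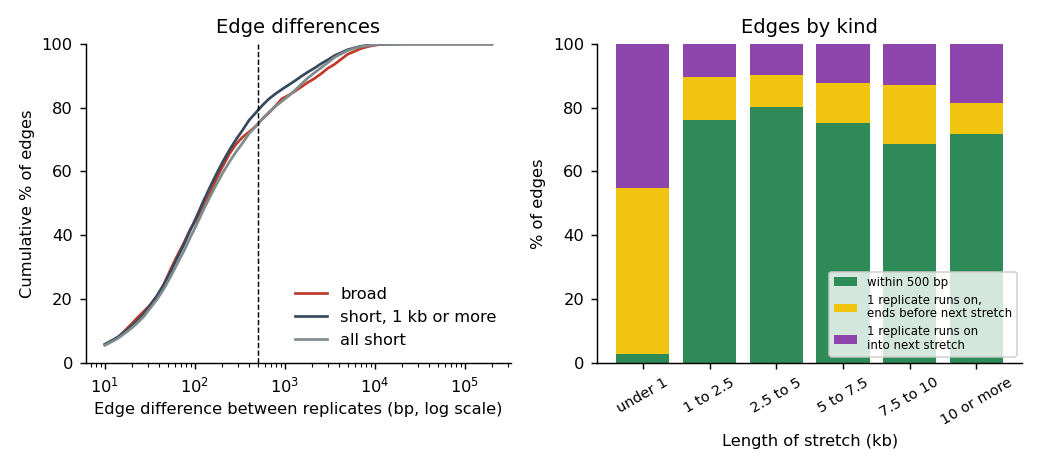
Left, cumulative share of edges (y axis, %) by the difference in position between the replicates in bp (x axis, log scale), with 500 bp dashed. Right, edges by kind (y axis, %) for 6 classes of stretch length in kb (x axis). Beyond 500 bp the curve of broad stretches lies below that of short ones of 1 kb or more, and edges where 1 replicate runs on into the next stretch make up 45.3% under 1 kb, 9.69% from 2.5 to 5 kb and 18.5% at 10 kb or more.

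Single domains showed how far the libraries could part or meet. The largest summed edge difference was on 3R from 14818379 to 14825131, a stretch of 6753 bp that was a whole cluster in replicate 2 (score 0.63) and part of a cluster of 24033 bp in replicate 1 (score 0.89). On X from 1962924 to 1972504 the stretch of 9581 bp lay in a cluster of 10678 bp in replicate 1 and of 22231 bp in replicate 2, with scores of 1.31 and 1.38. On 2L from 8165100 to 8171156 the stretch of 6057 bp lay in 18463 bp in replicate 1 (0.85) and was a whole cluster in replicate 2 (0.61). Either library could thus be the one that joined. The closest match was on 2L from 21154732 to 21160199, where the clusters of both replicates measured 5470 bp and each edge differed by 2 bp. It was followed by X from 6240262 to 6245274, with 7 and 12 bp, and 3L from 2816779 to 2821794, with 16 and 6 bp.

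In the authors' list of the replicate set, made from the same libraries, every broad stretch lay inside a single cluster. These 571 stretches fell into 552 clusters, of which 19 held 2 of them. The clusters of the set that held a broad stretch were a median of 8026 bp long, counted once per stretch, against 6201 bp for the stretches. At 73.0% of edges the set cluster reached beyond both replicates' clusters, by a median of 28 bp over all edges. The longest cluster of the set, on 3R from 14805131 to 14838305, covered 33175 bp, scored 0.75 and held 2 broad stretches. The set listed 1388 clusters of 5 kb or more on the arms, of which 39.8% held a broad stretch.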

How the data were processed

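H3K9ac ChIP-seq of whole larvae gave 2 ChIP and 2 input libraries. The submitters' processing notes name Bowtie 0.12.7. Coordinates are those of FlyBase release 5, per the file headers. How clusters were called, against which input and at what threshold, and how the replicate set was built, is not given in the sources used here. Sequencing depth is unknown because the lists hold no counts of reads. The deposited score per cluster was taken as a log2 value. Its base was inferred from ties: 697, 766 and 763 of 780 differences among the 40 most frequent scores of the 3 lists were log2 of ratios of whole numbers, and no more than 1 fitted a natural log or log10 scale. The denominator of the ratio is not stated.

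The replicate lists were intersected base by base, counting 1-based inclusive ends and joining abutting pieces. A stretch's score in a replicate is that of its cluster, weighted by bases where 2 clusters abut (5 broad stretches). Its position is its midpoint, and arm lengths come from the file headers. Adjacent stretches are neighbours in order along an arm. No test was made, because length is measured on the same lists and the ChIP group has 2 libraries. The members and lists were chosen with earlier results of these data known. Regions were named by rule: the 5 longest, the longest per arm, the 5 highest-scoring, the 3 largest groups, the 3 with the largest and the 3 with the smallest edge difference, 3 on each side of the limit and the 3 most isolated. Python 3.11.15, pandas 2.3.3 and numpy 2.4.6 were used, and the interval code was tested on simulated data.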

Additional observations from a re-analysis of the deposited data

How the results depend on the processing

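Differences are broad minus short: distance to the nearest stretch in bp (-291 as reported), broad neighbours (4.21 percentage points), score (0.50 on the log2 scale), shares within 2 Mb of an arm end (1.13 points for both sides together, 3.26 at telomeres, -2.13 at centromeres) and both edges within 500 bp (-5.22 points). The separate telomere and centromere values were added after the data were seen. Of 65 alternative values, 21 stayed close to the reported one (counts within 1.5 times, edges within the interval, others within the replicate spread), 43 moved further and 1 reversed. With 4000 bp as the limit there were 1047 broad stretches and the differences were -199 bp, 6.24, 0.50 (both arm ends), 1.70, -1.20 and -0.84 points. With 7500 bp there were 146, and they were -342 bp, 1.77, 7.34, 8.86, -1.52 and -10.3 points. Against short stretches of 1000 bp or longer, the distance differed by -381 bp and the centromere share by -2.37 points. With stretches 500 bp or less apart joined, the differences were -427 bp, 5.91 points for neighbours, 0.45 in score, 1.40 at telomeres and -1.88 at centromeres, and that for both arm ends reversed to -0.48. The cause was not tested. With the 50% of clusters that scored highest they were -50 bp, 0.14 in score, 3.90 at telomeres, -3.07 at centromeres and -17.4 points for edges. The replicate-set list gave 1388 broad clusters, -130 bp, 6.25 points for neighbours, 0.64 for both arm ends, 2.13 at telomeres and -1.49 at centromeres. Without the 2 Mb arm ends the distance differed by -142.5 bp. With either replicate left out, the ranges were 757 to 824 broad clusters, -463.5 to -414.5 bp, 4.09 to 5.48 points for neighbours, 0.50 to 0.55 in score, 0.14 to 0.71 for both arm ends, 2.09 to 2.57 at telomeres and -1.95 to -1.86 at centromeres. Edges cannot be compared within 1 list, and arm ends cannot be compared once trimmed. No paired analysis was possible because no test was made and no file of the input libraries was analysed here.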

Other observations

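Outside the 5 large arms, 96 stretches were covered in both replicates and 0 reached 5 kb. Chromosome 4, which is rich in heterochromatin but carries genes, held 47 of them, and the longest measured 4967 bp, just under the limit. On U the 11 stretches reached 2487 bp, and the longest on a heterochromatic sequence was 3545 bp, on XHet.

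Long parts of the arms held marked sequence but no broad domain. Between 2 broad stretches, the longest such part ran for 1967 kb on 2L from 16733981 to 18701297 and held 57 short stretches. The next of this kind were 1289 kb on 3R from 1621991 to 2910502, with 38 short stretches, and 1253 kb on 3L from 17485408 to 18738247, with 47. These regions were listed after the values were seen. Parts that reach an arm end were not listed and can be longer. The 2 Mb of X next to the centromere, for example, held 42 short and 0 broad stretches.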
